A study of Homo sapiens with 15 samples.

Results

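The comparison set K562 cells that received Cas9FCPF, an sgRNA and the compound JQ1-FCPF against control cells of the same line, over all genes. Its members were chosen by the labels. The targeted libraries carry the genotype Cas9FCPF+sgRNA and the treatment JQ1-FCPF, at 1 µM. The control libraries carry the genotype WT and the treatment NT. Each group held 3 libraries, 6 of the 15 in the series, and all were taken at 1 h. The design text mentions DMSO for the control, and whether those cells went through transfection is not said. Cas9FCPF, sgRNA and compound all differ between the groups, as transfection may, so that their parts cannot be told apart here. The other libraries, 3 a group, were JQ1-FCPF with Cas9FCPF and no sgRNA (untargeted JQ1-FCPF below), and JQ1 with Cas9FCPF, with and without sgRNA. The sequence and the target of the sgRNA are not given in the labels. The enzyme is called dCas9, a form without cutting activity, in the series title and Cas9 in the labels. Nothing says that the replicates were separate cultures, so p-values reflect only how far these libraries vary, and that variation may be technical.

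K562 is an established line from a chronic myeloid leukaemia with red cell features, driven by the BCR-ABL kinase. JQ1 occupies the bromodomains of BET family proteins. These proteins bind acetylated histones and bring the elongation kinase P-TEFb to promoters and enhancers. Transcripts with a short life, such as MYC and many transcription factors, are the first to fall when BET proteins are blocked, and MYC in blood cancers is the textbook case. HEXIM1 and some histone genes are used as markers that rise after BET inhibitors.

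Library totals were 12625669 to 17544518 counts, with 22970 to 24966 genes detected per library. Levels are given as CPM, the count of a gene scaled to library size and corrected for library composition. All 12 genes on the list for K562 identity, among them GATA1, HBG1, BCR and ABL1, were above 1 CPM in all 6 libraries. The label gives the cell type as lymphoblast, but MS4A1 and VPREB1 were at 0 in all 6 libraries and the 9 B cell markers summed to 3.71 to 5.09 CPM in the controls and 3.81 to 4.56 CPM in the targeted libraries. Targeted replicate 2 stood apart from replicates 1 and 3. On the first principal component of all 15 libraries (29% of the variance) the controls lay between -24.7 and -20.9, targeted replicates 1 and 3 at -16.7 and -14.8, and replicate 2 at 32.2, beyond the 6 JQ1 libraries at 16.8 to 24.6. On the second component (15.5%) the targeted libraries lay at -40, -16.4 and -27.2, and the other 12 between -12.5 and 15. The chi-square per degree of freedom between counts was 8.38 for replicates 1 and 3, and 22.2 and 22.7 for the pairs with replicate 2, beside 15.3, 11 and 7.26 for the control pairs. Results that rest on this library are given with and without it.

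MYC, the transcription factor that drives growth and ribosome production, was at 60.2, 57.3 and 61.0 CPM in the targeted libraries and at 195, 189 and 206 CPM in the controls. The groups did not overlap, and replicate 2 was as low as the other targeted libraries. The mean level fell 3.31-fold, from 197 ± 8.74 to 59.5 ± 1.95 CPM (SD, n = 3), a log2 change of -1.73 ± 0.13 (SE; edgeR's quasi-likelihood test, adjusted p = 2.2e-08). MYC lies on chromosome 8 from 127735434 to 127741434 in GRCh38. Each of its targeted libraries was also below all 9 libraries of the other treated groups, which ranged from 103 to 197 CPM. In bulk RNA such as this, fewer cells that express a gene and less RNA per cell cannot be told apart.

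MYC works in a network of factors that pair with each other. MAX, its obligate partner, was at 57.6, 47.4 and 54.4 CPM against 46.8, 56.9 and 51.8 CPM. MAX was not called, and its groups overlapped. Of 12 tested members 1 rose and 2 fell, 25% beside 7.28% of all genes. Apart from MYC these were MLX, the partner of the Mondo factors, which fell 1.28-fold, and MLXIPL, the glucose-sensing factor ChREBP, which rose 1.91-fold to 18.3 ± 5.83 CPM (SD, n = 3). Both calls depended on single libraries. The edgeR adjusted p for MLXIPL was 0.058, 0.051 and 0.052 without control replicate 2, control replicate 3 and targeted replicate 2, and that for MLX was 0.06 and 0.053 without control replicate 3 and targeted replicate 1.

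Of 15517 genes tested, 1129 were called at an adjusted p under 0.05 (7.28%). Of these, 749 were lower (4.83%) and 380 higher (2.45%) in the targeted libraries, and 276 changed more than 2-fold, 147 lower and 129 higher. The median log2 change over all genes was 0.01. In 25.1% of the genes no targeted library lay within the range of the controls, 13.3% on the lower side and 11.8% on the higher. DESeq2 called 798 lower (5.7%) and 484 higher (3.45%). Without replicate 2 edgeR called 1087 genes (6.84%), 724 lower (4.56%) and 363 higher (2.28%), of which 778 were among the 1129. The count with all targeted libraries was 538 without control replicate 3, 693 without control replicate 1 and 695 without control replicate 2.

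**Figure D1:**
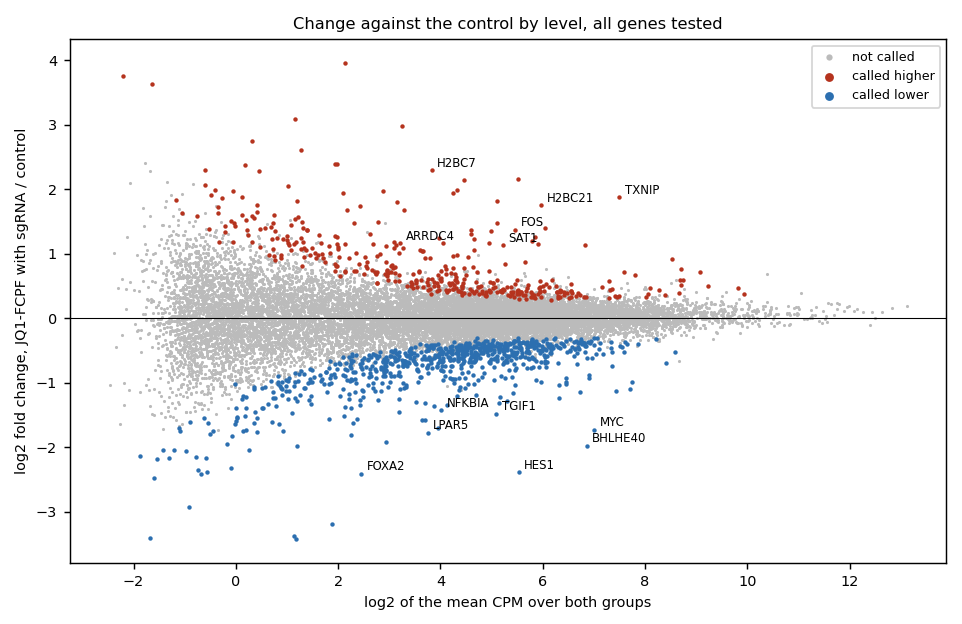
Change of each tested gene (points) in the targeted JQ1-FCPF libraries against the control, as log2 fold change, over the log2 of its mean CPM in both groups. Blue and red points are the 749 genes called lower and the 380 called higher, and MYC, HES1 and BHLHE40 are low and TXNIP high among genes of similar level.

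The naming rule took the 15 protein-coding genes that fell most among those with a mean of at least 5 CPM, with folds of 2.55 to 5.32. Among them were FOXA2, HES1, BHLHE40, MYC, CITED2, OTX1, TGIF1, IRF1 and ZNF689, which encode transcription factors or cofactors. The others were CYP26A1, an enzyme that breaks down retinoic acid, LPAR5 and PTGDR2, receptors for lysophosphatidic acid and prostaglandin D2, RHOH, a blood cell GTPase, NFKBIA, the NF-kB inhibitor, and ALKBH4. All 15 were also called without replicate 2.

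HES1, the repressor induced by Notch signalling, was at 14.9, 14 and 15.5 CPM in the targeted libraries and at 70.8, 87.8 and 73.8 CPM in the controls. The 2 groups were far apart and the targeted libraries close together. HES1 fell 5.22-fold (log2 change -2.38 ± 0.13, SE; edgeR adjusted p = 7.5e-11). Its promoter is shown because no other called gene above 10 CPM in the controls fell as steeply. The bases before its start site from RefSeq (GRCh38.p14), 5′ to 3′, hold 2 copies of TGGGAA in capitals, the core recognised by the Notch factor RBPJ. That core, on either strand, occurs in 24.3% of all 27305 promoters of the table, and a match is a description, not a binding site.
HES1, chr3:194135898-194136147, plus strand: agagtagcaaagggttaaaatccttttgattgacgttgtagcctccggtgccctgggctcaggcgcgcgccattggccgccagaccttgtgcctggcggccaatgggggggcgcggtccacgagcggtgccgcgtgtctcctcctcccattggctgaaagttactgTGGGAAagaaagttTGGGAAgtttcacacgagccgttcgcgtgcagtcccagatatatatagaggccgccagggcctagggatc
HEY1, another Notch-induced repressor, was at 6.82, 5.59 and 7.06 CPM against 12.3, 14.3 and 14.1 CPM and fell 2.08-fold. On the whole Notch list, 1 of 21 tested members rose (LFNG) and 2 fell (HES1 and HEY1), 14.3% called beside 7.28% of all genes. Over all genes 2.45% were called higher and 4.83% lower. The median log2 change of the list was 0.01. The call for LFNG was lost without control replicate 3 (adjusted p = 0.056).

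BHLHE40, a repressor that joins the circadian clock to stress signals, was at 45.1, 52.9 and 43.5 CPM against 189, 187 and 179 CPM. It fell 3.93-fold, with the smallest adjusted p of the named genes (3.4e-12, edgeR), and the groups did not overlap. FOXA2, a forkhead factor of endoderm, was at 1.38, 2.05 and 1.72 CPM against 8.34, 11.6 and 7.67 CPM, a 5.32-fold fall at a low level. TGIF1, a corepressor of SMAD signalling, was at 17.2, 19.9 and 16.8 CPM against 48.2, 51.3 and 50.9 CPM and fell 2.79-fold. In all 3 genes replicate 2 lay with the other targeted libraries, slightly higher. RHOH was at 4.98, 9.36 and 5.40 CPM against 19.4, 18.5 and 20.6 CPM, so here replicate 2 lay nearer to the controls, without reaching them.

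The named genes of other biotypes, also with a mean of at least 5 CPM, fell less than these 15 protein-coding genes. ENSG00000266976, a long noncoding RNA, was at 134, 63.0 and 128 CPM against 252, 208 and 248 CPM. It fell 2.18-fold, with replicate 2 the lowest. SNHG15, a host of small nucleolar RNAs, was at 23.5, 22.6 and 21.6 CPM against 49.7, 40.2 and 41.6 CPM and fell 1.95-fold. MIR17HG, the host of the miR-17 cluster, which MYC is known to induce, fell 1.90-fold, from 23.8 ± 2.04 to 12.5 ± 1.89 CPM (SD, n = 3). MIR223HG was called 2.34-fold lower, but its call was lost without any single control library and without targeted replicate 1 or 3 (edgeR adjusted p = 0.074 to 0.14).

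TXNIP had the largest rise of the named genes away from the histone clusters. It encodes an arrestin that holds back glucose uptake and thioredoxin, and glucose-sensing Mondo factors with MLX drive it. TXNIP was at 293, 254 and 303 CPM in the targeted libraries and at 77.2, 73.4 and 81.2 CPM in the controls. The groups were well separated and the rise was 3.67-fold (log2 change 1.88 ± 0.12, SE; edgeR adjusted p = 9.9e-10). Its paralogue ARRDC4, also a Mondo target, was at 12.1, 12.8 and 13.5 CPM against 5.98, 5.35 and 5.85 CPM, a 2.23-fold rise alike in all 3 libraries. SAT1, the enzyme that breaks down polyamines, was at 59.9, 49.1 and 43.7 CPM against 22.1, 25.3 and 22.4 CPM and rose 2.19-fold. These 3 rises did not depend on replicate 2.

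The promoter of TXNIP is shown because it holds the element through which Mondo factors act. The capitals mark a match to the carbohydrate response element searched on both strands, with 250 bases before the start from RefSeq (GRCh38.p14), 5′ to 3′.
TXNIP, chr1:145996580-145996829, minus strand: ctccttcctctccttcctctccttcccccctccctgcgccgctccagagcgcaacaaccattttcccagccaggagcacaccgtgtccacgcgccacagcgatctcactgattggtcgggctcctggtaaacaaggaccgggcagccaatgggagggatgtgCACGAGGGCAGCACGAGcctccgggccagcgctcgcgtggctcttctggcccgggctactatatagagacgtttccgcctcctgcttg
Such a match occurs in 0.524% of all promoters in the table and in 0.893% of the 9851 of tested protein-coding genes. It was in 1 of 228 promoters of genes that rose outside the histone list (0.439%) and in 8 of 525 of those that fell (1.52%). The window of ARRDC4 held no match. The E-box CACGTG is bound by MYC and MAX and may overlap a carbohydrate response element. It occurred in 12% of the 525 promoters of genes that fell and in 10.3% of all tested protein-coding genes. Among the 228 of genes that rose outside the histone list the share was 8.33%.

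Histone genes formed the main group that rose. Replication-dependent histone genes lie in clusters on chromosomes 6 and 1, are made in S phase and have mRNAs without a poly(A) tail. Of 41 tested members, 27 rose and 0 fell, against a background of 2.45% of all genes called higher, and the median log2 change was 1.09. Without replicate 2, 31 rose and the median was 1.28, and leaving out any 1 library of the 2 groups left 21 to 31. Counts of these near-identical genes may be shared between copies, and single values are uncertain for this reason. The summed share of histone genes in all counts was 0.13 to 0.15% in the controls and 0.27, 0.17 and 0.24% in targeted replicates 1 to 3.

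H2BC7 was at 31.0, 16.4 and 23.3 CPM against 5.66, 4.86 and 3.92 CPM and rose 4.91-fold (edgeR adjusted p = 2.3e-06). H2BC8 was at 100.4, 37.1 and 88.2 CPM against 17.9, 14.3 and 18 CPM, a 4.49-fold rise. H2BC21, at 121, 74.2 and 94.3 CPM against 28.7, 28.0 and 29.1 CPM, rose 3.37-fold. In each of these H2B genes the groups were apart and replicate 2 was the lowest of the targeted libraries. H3C10, which encodes H3, rose 2.65-fold and H2AC11, which encodes H2A, 2.56-fold. The largest fold on the list was that of H3C6, at 14.4, 1.73 and 8.54 CPM against 0.38 to 0.68 CPM, where replicate 2 was far below the other targeted libraries.

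Promoters of 3 of the H2B genes are shown because the 12 that rose with a promoter in the table often hold the same elements. They are 250 bases before the start from RefSeq (GRCh38.p14), 5′ to 3′, with capitals for the octamer ATTTGCAT, bound by OCT1, and for the TATA letters TATAAA, on either strand.
H2BC8, chr6:26216689-26216938, minus strand: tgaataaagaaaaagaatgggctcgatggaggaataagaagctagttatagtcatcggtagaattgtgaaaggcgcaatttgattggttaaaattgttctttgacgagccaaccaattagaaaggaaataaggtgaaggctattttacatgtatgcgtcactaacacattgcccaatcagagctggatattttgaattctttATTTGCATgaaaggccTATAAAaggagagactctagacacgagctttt
H2BC9, chr6:26251364-26251613, plus strand: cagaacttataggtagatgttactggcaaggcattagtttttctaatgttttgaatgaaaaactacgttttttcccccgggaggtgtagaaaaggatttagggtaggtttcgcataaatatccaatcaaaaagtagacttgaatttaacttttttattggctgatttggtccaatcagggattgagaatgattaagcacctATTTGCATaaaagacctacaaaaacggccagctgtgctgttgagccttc
H2BC21, chr1:149886683-149886932, minus strand: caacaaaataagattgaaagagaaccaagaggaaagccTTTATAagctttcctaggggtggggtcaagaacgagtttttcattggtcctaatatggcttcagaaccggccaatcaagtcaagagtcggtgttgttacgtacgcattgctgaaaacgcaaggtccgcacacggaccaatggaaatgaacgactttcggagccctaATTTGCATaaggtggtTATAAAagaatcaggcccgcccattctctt
H2BC8 and H2BC21 show both elements and H2BC9 the octamer alone. The octamer was found in 10 of the 12 H2B promoters (83.3%), against 1.8% of all 27305 promoters. TATAAA occurred in 66.7% of them against 12%, and CCAAT in all 12 against 35.7%. These elements are known for histone H2B promoters in general, and the windows searched ran from 250 bases before to 50 after the start.

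Genes next to the histone genes were counted higher too. Within 10 kb of a list member, 14 tested genes were not themselves on the list. Of these 11 rose and 0 fell, beside 2.45% of all genes called higher and 4.83% lower. Only 7 of the 14 are protein-coding, and 5 of those rose: H3C13, ENSG00000274267, ENSG00000282988, HFE and BOLA1. H3C13 is itself a histone gene, and ENSG00000282988 and BOLA1 overlap the list members H3C4 and H2AC21. The counts are thus in part the histone result again. The genes that rose included further histone copies and pseudogenes, H3C13 and H2BC20P among them, but also HFE, the haemochromatosis gene, and BOLA1. HFE was at 9.88, 4.33 and 7.68 CPM against 2.99, 2.32 and 2.50 CPM and rose 2.80-fold. The pseudogene ENSG00000217275 was at 23.4, 7.24 and 19.7 CPM against 2.35, 1.97 and 2.04 CPM, a 7.89-fold rise. In both, replicate 2 was the lowest targeted library and still above the controls. BOLA1 was near 0 in the controls (0.17 to 0.45 CPM) and in replicate 2 (0.24 CPM), and at 3.68 and 2.58 CPM in replicates 1 and 3, and its adjusted p reached 0.083 under the alternatives. H2AC7, H4C10P and GCAT were not called. The neighbours were chosen after the histone values were seen, and whether counting used strand is not known, so reads from a histone gene and from an overlapping gene cannot be told apart.

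The remaining genes with the largest rises were mixed. FOS, the immediate early AP-1 factor, was at 83.7, 31.8 and 74.8 CPM against 26.6, 23.1 and 23.7 CPM and was called 2.6-fold higher. Its call was lost without control replicate 2 or 3 (edgeR adjusted p = 0.058 and 0.063). ASS1, which makes argininosuccinate, was at 21.1, 62.4 and 20.1 CPM against 13.9, 15.6 and 12 CPM. Here 1 library carried most of the 2.48-fold difference: ASS1 was 1.5-fold higher without replicate 2, and it lost its call without any 1 control library (adjusted p = 0.098 to 0.14). OR2B6, an olfactory receptor gene near the histone cluster of chromosome 6, was at 19.4, 4.01 and 11.5 CPM against 3.44, 2.47 and 2.95 CPM. It rose 3.93-fold, and 5.21-fold without replicate 2. CCDC17 was at 15.1, 4.88 and 10.3 CPM against 4.39, 2.47 and 3.81 CPM and rose 2.82-fold, and 3.54-fold without replicate 2. In both, replicate 2 was only just above the controls. The long noncoding RNA LINC02432 rose 3.53-fold.

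**Figure D2:**
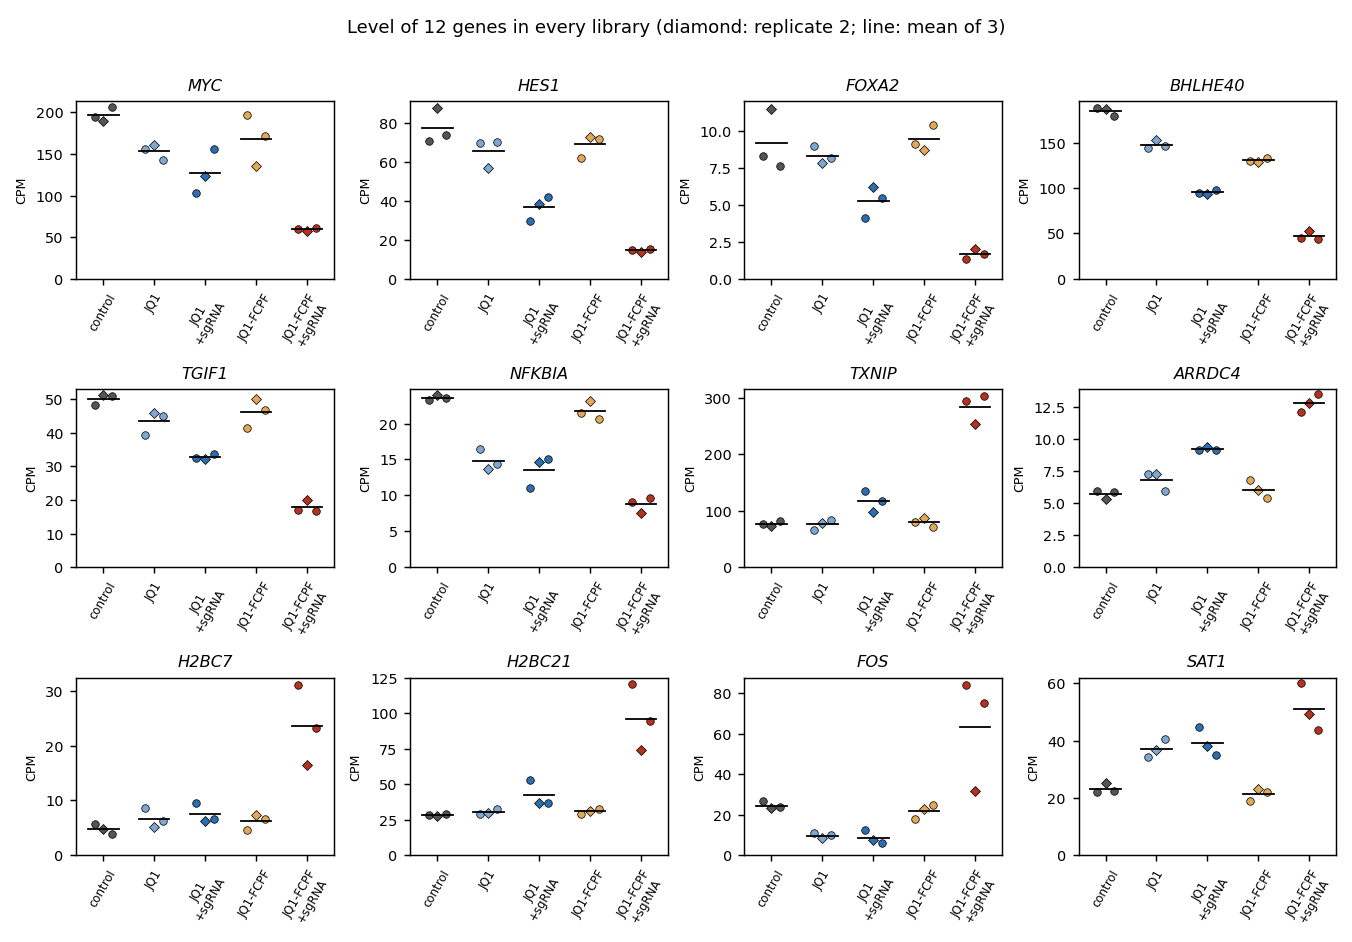
Level in CPM of 12 genes (panels) in every library of the 5 groups, with replicate 2 as a diamond, replicates 1 and 3 as circles and the mean of 3 as a line. The targeted libraries are lowest for MYC, HES1, FOXA2, BHLHE40, TGIF1 and NFKBIA and highest for TXNIP, ARRDC4, H2BC7 and H2BC21, and replicate 2 is apart for FOS.

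Gene lists for signalling, lineage and other programmes were counted next. Of 37 lists, the 32 with 10 or more tested members are plotted, beside the shares of 4.83% lower and 2.45% higher over all genes.

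NF-kB is held in the cytoplasm by NFKBIA, which it also induces. Of 21 tested NF-kB target genes 9 fell, 1 rose and 11 were not called, and the median log2 change was -0.37. NFKBIA was at 9.12, 7.48 and 9.58 CPM against 23.2, 23.9 and 23.5 CPM and fell 2.69-fold (edgeR adjusted p = 4.9e-07). The chemokine genes CXCL2 and CXCL3 fell 10.4-fold and 9.13-fold from low levels: CXCL3 was at 0.54, 0.87 and 0.74 CPM against 7.13, 7.54 and 5.17 CPM, and CXCL2 at 0.31, 0.47 and 0.37 CPM against 5.35, 3.31 and 3.46 CPM. All targeted libraries were under 1 CPM for both and all controls above 3 CPM. IRF1, a factor shared with the interferon list, was at 4.90, 4.88 and 4.79 CPM against 12.4, 14.4 and 13.1 CPM and fell 2.73-fold. Genes of the NF-kB subunits NFKB1, NFKB2, REL and RELB were not called. Of the 18 tested interferon genes 2 fell, IRF1 and IFIT3, and IRF7 rose 1.92-fold. The call for IFIT3 was lost without control replicate 1 (adjusted p = 0.055).

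TGF-beta and BMP feedback genes, which restrain or transmit SMAD signals, gave 6 lower and 1 higher of 14 tested, with a median log2 change of -0.87. Besides TGIF1 these were BAMBI, a decoy receptor, SKIL, a corepressor, ID1 and, named after their values were seen, SMAD7 and ID2. BAMBI was at 25.7, 16.1 and 26.9 CPM against 54.0, 52.2 and 61.9 CPM and fell 2.44-fold. ID1, the dominant negative HLH factor that BMP and STAT5 induce, was at 43.3, 33.3 and 48.5 CPM against 77.3, 90.4 and 80.1 CPM and fell 1.98-fold. Replicate 2 was the lowest of the targeted libraries for both. SKIL was at 15, 20.9 and 14.6 CPM against 33.9, 33.5 and 34.1 CPM and fell 2.01-fold. SMAD6, an inhibitory SMAD outside the naming rule, rose 1.52-fold. The adjusted p for ID2 reached 0.065 under the alternatives.

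STAT5 acts downstream of BCR-ABL and induces its own inhibitors. Of 12 tested target genes 5 fell and 0 rose (median log2 change -0.37): ID1, SOCS1, SOCS2, SOCS3 and CISH, the last named after its value was seen. SOCS2 was at 88.0, 115 and 92.5 CPM against 159, 143 and 152 CPM and fell 1.54-fold. SOCS1 was at 9.04, 7.95 and 8.84 CPM against 15.3, 15.6 and 17.4 CPM and fell 1.87-fold. No targeted library reached the lowest control in either. The call for SOCS3 was lost without control replicate 3 (adjusted p = 0.064), and 6 members fell without targeted replicate 2. BCR and ABL1 themselves were not called (log2 change 0.00 ± 0.12 and 0.14 ± 0.09, SE).

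Feedback genes of the ERK pathway gave 5 lower and 0 higher of 18 tested, with a median log2 change of -0.36. CCND1, a cyclin of G1, was at 26.4, 26.9 and 25.7 CPM against 49.7, 48.5 and 52.4 CPM and fell 1.91-fold. FOSL1, PHLDA1, SPRY4 and SPRY1 also fell, SPRY1 being named after its value was seen. The call for SPRY4 was lost in a fit of the 2 groups alone (adjusted p = 0.057).

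Immediate early genes went both ways and depended on replicate 2. Of 31 tested, 7 fell and 4 rose. Without replicate 2, 7 fell and 10 rose. The number that rose was 1 without control replicate 3, and 2 without control replicate 1 or without targeted replicate 1 or 3. ZFP36L2, which destabilises mRNAs, was at 48.2, 45.6 and 48.3 CPM against 112, 103 and 119 CPM and fell 2.35-fold. SGK1, a serum-induced kinase, fell 2.62-fold and BTG2, an antiproliferative factor, 1.73-fold. These falls were alike in all 3 targeted libraries. EGR1, chosen after its values were seen, was at 560, 210 and 533 CPM against 328, 294 and 269 CPM, so that replicates 1 and 3 were above and replicate 2 below every control. EGR1 was not called with 3 libraries (edgeR adjusted p = 0.27).

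Transcription factors of the erythroid lineage gave 9 lower and 1 higher of 21 tested, with a median log2 change of -0.36. NFE2, which drives globin genes, was at 93.3, 176 and 130 CPM against 265, 304 and 284 CPM and fell 2.13-fold. KLF1 was at 78.4, 86.3 and 87.1 CPM against 136, 170 and 159 CPM and fell 1.85-fold. LMO2 and TAL1, which form a complex with GATA1, fell 1.71-fold and 1.53-fold. GATA1 was at 198, 236 and 237 CPM against 257, 289 and 263 CPM and was not called (adjusted p = 0.17). The number that fell was 5 without control replicate 3 or without targeted replicate 1. Of 37 tested globin, haem and red cell genes 2 fell and 1 rose, and 1 fell without control replicate 3. The 1 that rose, EPB41, a membrane skeleton gene, lost its call without any 1 of the 6 libraries (edgeR adjusted p = 0.054 to 0.18). TFRC, the transferrin receptor, was at 293, 196 and 291 CPM against 438, 371 and 454 CPM and fell 1.62-fold. HBG1 was at 171, 122 and 173 CPM against 153, 165 and 133 CPM, with overlapping groups.

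Zinc finger genes of the ZNF symbols gave 59 lower and 1 higher of 463 tested, 13% called against 7.28% of all genes, with a median log2 change of -0.19. ZNF689 was at 5.36, 6.22 and 7.06 CPM against 17.2, 17.5 and 20.8 CPM and fell 2.97-fold. ZNF518B was at 38.5, 39.0 and 37.1 CPM against 64.7, 62.3 and 68.6 CPM and fell 1.71-fold. The number lower was 34 without control replicate 3.

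Of 61 tested MYC target genes 8 fell and 0 rose, 13.1% beside 4.83% of all genes called lower, with a median log2 change of -0.14. PPAN, a factor of ribosome assembly, was at 31.6, 21 and 35.2 CPM against 51.0, 61.0 and 53.6 CPM and fell 1.88-fold. PPRC1, a coactivator of mitochondrial genes, was at 58.2, 56.9 and 64.1 CPM against 92.0, 93.8 and 105 CPM and fell 1.62-fold. For both, the groups did not overlap. Leaving out 1 library gave 3 falling members (control replicate 3) to 12 (targeted replicate 3), with 5 without control replicate 2 or targeted replicate 2.

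BET response markers gave 5 higher and 1 lower of 9 tested: TXNIP, H2BC21, H2BC5, H2BC12 and ZCCHC24 rose, the last 2 of these named after their values were seen, and MYC fell. The adjusted p for H2BC12 reached 0.14 under the alternatives. HEXIM1 was at 167, 86.6 and 139 CPM against 120, 134 and 126 CPM and was not called. It was singled out after its values were seen, and replicate 2 lay below all controls. Of the genes for BET proteins, P-TEFb and Mediator, 1 of 30 tested fell, CCNT2, a cyclin of P-TEFb, by 1.56-fold. Its call was lost without control replicate 1 or 3 (adjusted p = 0.0501 and 0.06).

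Cell cycle genes were counted on 2 lists. Of 41 tested S phase and E2F genes 4 fell and 0 rose (9.76% called). Of 41 G2/M genes 2 fell and 0 rose (4.88%), beside 4.83% of all genes called lower. E2F2 was at 11.5, 14.9 and 12.9 CPM against 29.7, 26.3 and 29 CPM and fell 2.17-fold, and E2F8 fell 1.75-fold. The S phase list had a median log2 change of -0.12 beside that of 1.09 for the histone genes, and 2 of its members were called without targeted replicate 2 or without any 1 control library. Of 40 tested ATF4 and unfolded protein genes 6 rose and 2 fell, with 2 higher and 3 lower without replicate 2. The number higher was 10 without targeted replicate 1 or 3, and 3 and 2 without control replicates 2 and 3. ASNS, asparagine synthetase, was at 551, 902 and 543 CPM against 394, 453 and 372 CPM, and HERPUD1 at 44.0, 46.7 and 47.6 CPM against 31.1, 33.5 and 34.0 CPM. Replicate 2 was highest for ASNS and within the range of the others for HERPUD1. INSIG1, which restrains cholesterol synthesis, rose 1.59-fold to 275 ± 26.6 CPM (SD, n = 3). NR1D1, the clock repressor REV-ERBα, was at 4.75, 5.67 and 5.65 CPM against 12.2, 11.6 and 14.7 CPM and fell 2.39-fold.

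By edgeR's test 0 of 78 ribosomal protein genes, 0 of 13 mitochondrially encoded genes, 0 of 26 heat shock genes and 0 of 23 genes for RNA polymerase II subunits and CTD kinases were called. At an unadjusted p under 0.05 the counts were 1, 0, 0 and 1, and DESeq2 called 0 in each. Without replicate 2, 3 heat shock genes were called higher and 0 of the other 3 lists. Among markers of other cell types, the fibroblast gene COL1A1 was called 2.18-fold higher at 4.86 ± 1.11 against 2.22 ± 0.84 CPM (SD, n = 3), while LUM and PDGFRA were at 0 in all 6 libraries. COL1A1 lost its call in a fit of the 2 groups alone (edgeR adjusted p = 0.058). The 9 fibroblast markers summed to 2.17 to 3.86 CPM in the controls and 4.51 to 6.66 CPM in the targeted libraries, and their part in other results was not tested. T and NK cell markers summed to 29.5 to 34.3 CPM in the controls and 23.9 to 30.4 CPM in the targeted libraries, with KLRD1 at 0 and CD3D above 1 CPM in all 6. Epithelial markers summed to 1221 to 1403 CPM and 898.9 to 1267 CPM, with none at 0 and EPCAM, KRT8, KRT18 and KRT19 above 1 CPM in all 6. No gene of these 2 lists was called.

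The called genes also shared features of gene structure that the choice of groups did not use. Protein-coding genes that fell had a median span of 15593 bases (665 genes) against 30442 bases for all 12126 tested, and a median of 6 against 11 exon blocks. Those that rose outside the histone list had a median span of 62882 bases and 14 blocks (285 genes). Genes with 1 exon made up 6.62% of those that fell, 4.21% of those that rose outside the histone list and 2.52% of all. These are descriptions over genes, which are not independent replicates.

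The targeted group was then tested directly against the 2 groups most like it. Against untargeted JQ1-FCPF, which shares compound and Cas9FCPF but has no sgRNA, 951 genes were called (6.13%), 643 lower (4.14%) and 308 higher (1.98%). Against JQ1 with Cas9FCPF and sgRNA, the same dose and time with the compound without FCPF, 450 were called (2.9%), 273 lower (1.76%) and 177 higher (1.14%). The first count was 430 and 491 without replicates 3 and 2 of untargeted JQ1-FCPF. The second was 66, 2765 and 114 without targeted replicates 1, 2 and 3, and 202 and 255 without replicates 2 and 3 of JQ1 with sgRNA. Of the 15 protein-coding genes named as lower against the control, 15 were also called lower than untargeted JQ1-FCPF and 14 lower than JQ1 with sgRNA, the exception being PTGDR2. Of the 15 named as higher, 14 and 12 were called. The genes were chosen with the same targeted libraries that entered both direct tests. This overlap was thus partly built in and is no separate support.

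MYC was 2.83-fold lower than in untargeted JQ1-FCPF, where it was at 197, 136 and 171 CPM, and 2.14-fold lower than in JQ1 with sgRNA, where it was at 103, 123 and 156 CPM (edgeR adjusted p = 2.1e-07 and 6.4e-05). TXNIP was at 79.1, 87.9 and 71.1 CPM in untargeted JQ1-FCPF and at 136, 97.3 and 116 CPM in JQ1 with sgRNA, and the targeted level was 3.57-fold and 2.44-fold higher. HES1, at 62.4, 73.2 and 72.1 CPM and at 29.8, 38.5 and 42.2 CPM in those groups, was 4.67-fold and 2.48-fold lower in the targeted libraries. For these 3 genes the targeted libraries overlapped neither group. Not every change set the targeted libraries apart. SKIL was at 17.5, 17.8 and 15.6 CPM in untargeted JQ1-FCPF and at 16.8, 16 and 16.8 CPM in JQ1 with sgRNA, and the targeted group differed from them by log2 -0.02 ± 0.12 and 0.02 ± 0.12 (SE; adjusted p = 0.96 and 0.95). BAMBI was 2.21-fold lower than in untargeted JQ1-FCPF, whereas the difference from JQ1 with sgRNA was log2 -0.01 ± 0.13 (SE). On the histone list, 24 of 41 tested members were higher than in untargeted JQ1-FCPF and 24 higher than in JQ1 with sgRNA. Over all genes 1.98% and 1.14% were called higher. Lists that fell against the control had fewer members lower than in JQ1 with sgRNA. These were 4 of 21 for NF-kB, 4 of 21 for erythroid factors, 2 of 12 for STAT5 and 2 of 18 for ERK feedback. For TGF-beta and BMP feedback it was 1 of 14, and for MYC targets 0 of 61, beside 1.76% of all genes.

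Replicate 2 of the targeted group was described gene by gene, without a test, since 1 library has no replicate. It was more than 2-fold above the mean of replicates 1 and 3 for 450 genes and more than 2-fold below it for 532. The same counts were 313 and 190 for replicate 1 and 114 and 227 for replicate 3, each against the other two. PIM1, a kinase induced by STAT5, was at 131 and 159 CPM in replicates 1 and 3 and at 652 CPM in replicate 2, with 458 to 523 CPM in the controls and 779 to 854 CPM in JQ1 without sgRNA. SOSTDC1, a secreted BMP antagonist, was at 5.52 and 5.53 CPM in replicates 1 and 3 and at 23.3 CPM in replicate 2, against 23.9, 24.2 and 22.2 CPM in the controls. INHBE, an activin subunit, was at 7.05 and 8.17 CPM and at 25.1 CPM in replicate 2, against 26.0, 29.5 and 30.9 CPM. In these genes replicates 1 and 3 were far below the controls, and replicate 2 was near or above them. The 8 genes of this kind were chosen because replicate 2 lay furthest above the other targeted libraries, so their changes are a description with no test. Without replicate 2 the log2 change against the control was -1.76 for PIM1, -2.07 for SOSTDC1, -1.90 for INHBE and -0.61 for FUT1. It was 0.03 for AKNA, -0.07 for SH3TC1, -0.12 for PRSS8 and 0.44 for CPZ, where replicates 1 and 3 were thus nearer to the controls.

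Other genes placed replicate 2 with the JQ1 libraries. NEFH, a neurofilament gene, was at 62.4 and 57.8 CPM in replicates 1 and 3 and at 16.6 CPM in replicate 2, beside 52.4 to 72.4 CPM in the controls and untargeted JQ1-FCPF and 18.7 to 26.3 CPM in the 6 JQ1 libraries. FUT1, a fucosyltransferase, was at 5.98 and 7.98 CPM and at 32.0 CPM in replicate 2, beside 9.65 to 12.2 CPM in the controls and 18 to 29.8 CPM in the JQ1 libraries. AQP3, a water channel, was at 52.6 and 53.5 CPM and at 18.3 CPM in replicate 2, beside 19.5 to 32.8 CPM in the JQ1 libraries. For these genes replicate 2 lay just outside the range of the JQ1 libraries, on the side away from the controls, and what it shares with those libraries was not tested.

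**Figure D3:**
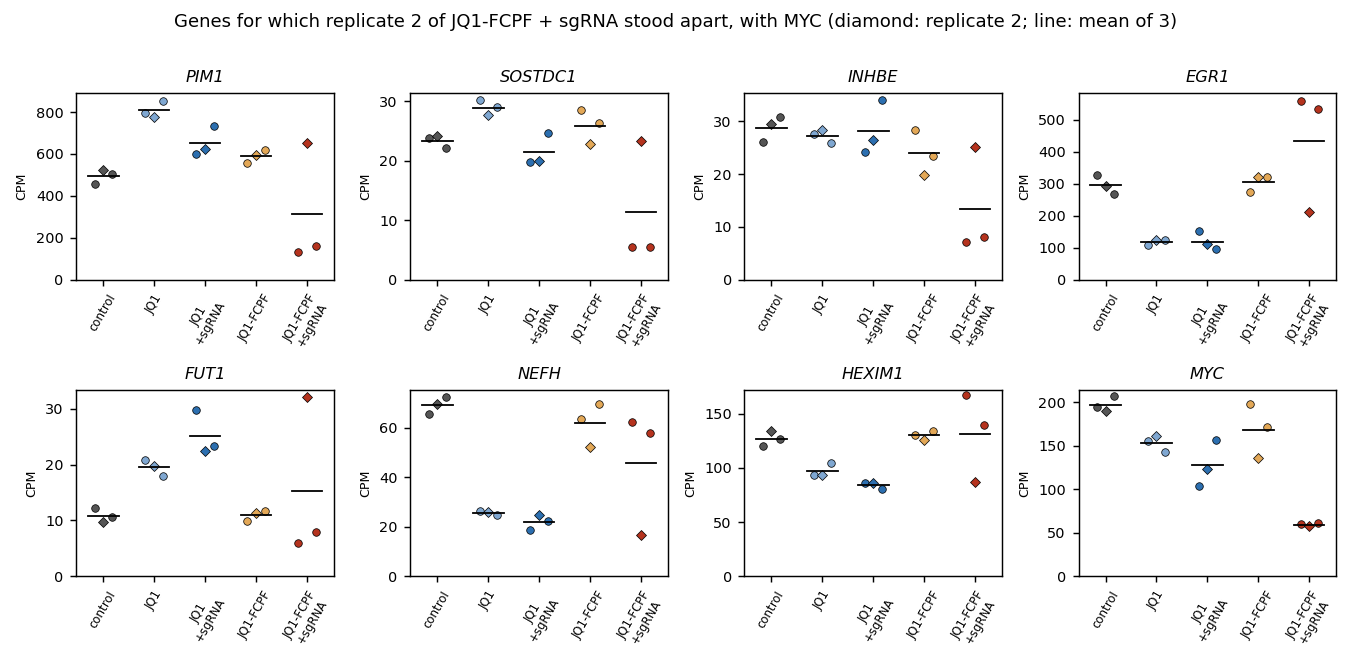
Level in CPM of 8 genes (panels) in every library of the 5 groups, with replicate 2 as a diamond, replicates 1 and 3 as circles and the mean of 3 as a line. In the targeted group replicate 2 is apart for PIM1, SOSTDC1, INHBE, EGR1, FUT1, NEFH and HEXIM1, while all 3 libraries coincide for MYC.

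For many genes called without it, replicate 2 lay beyond untargeted JQ1-FCPF in the direction of the change. Of 723 genes called lower without it and also tested with it, replicate 2 was below all 3 libraries of untargeted JQ1-FCPF for 571 (79.0%), beside 46.6% of all 7183 tested genes with a change in that direction. Of 347 such genes called higher, replicate 2 was above all 3 for 211 (60.8%), beside 44.2% of 8334. MYC, HES1, FOXA2, TXNIP and H2BC8 were among those that held, and PIM1, SOSTDC1 and EGR1 among those that did not. The comparison used untargeted JQ1-FCPF so that no control library entered both sides. JQ1 with sgRNA can lie in that direction too: BAMBI had a mean of 23.1 CPM there and 50.8 CPM in untargeted JQ1-FCPF. The counts therefore do not tell replicate 2 from the JQ1 libraries, and whether it shares their changes was not tested.

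**Figure D4:**
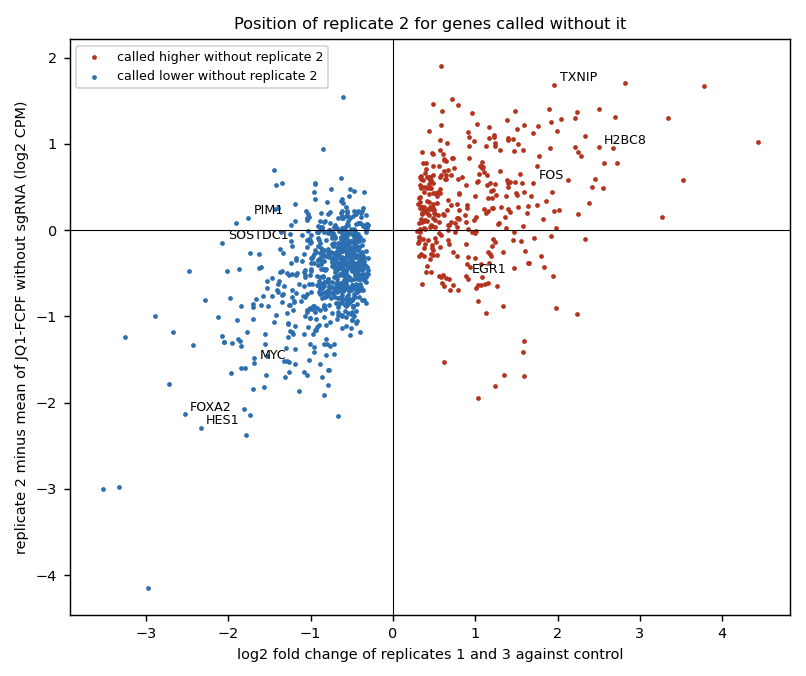
For each gene called without replicate 2 (points), the log2 fold change of replicates 1 and 3 against the control is on the x axis and the log2 CPM of replicate 2 minus the mean of untargeted JQ1-FCPF is on the y axis. Most blue points (called lower) lie below 0, with HES1 and FOXA2 far down, and most red points (called higher) above 0, with EGR1 below.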

How the data were processed

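Per the file headers, the values the authors deposited are raw, unnormalised read counts, 1 file per library with 57500 genes in the same order, laid out as feature counting programs write them. The sources used here name no aligner, build, annotation, library kit or strand setting. GENCODE release 29 held 56898 of the identifiers, 96.3% of them at identical start and end positions, which places the coordinates in GRCh38. Per the labels' protocols, RNA was extracted with Trizol.

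Counts of all 15 libraries in 5 groups were fitted with edgeR 4.0.16 in R 4.3.3 (filterByExpr, TMM, robust quasi-likelihood, 1 mean per group, no covariate), so that groups shared 1 estimate of the spread, a biological coefficient of variation of 11.1%. Changes were called at a Benjamini-Hochberg adjusted p under 0.05 over all 15517 genes tested. CPM used TMM-scaled library sizes, and log2 CPM a prior count of 2. Counting error at these depths is small except at a few CPM. Alternatives were DESeq2 1.42.0, its size factors, no filter, a replicate block, a fit of the groups compared, and libraries left out. The test was checked on simulated data. It recovered 56.7% of 1.5-fold, 70.8% of 2-fold and 95.4% of 4-fold changes, and 5.8% of its calls were false. No simulated library stood apart as targeted replicate 2 does, so the check does not cover that case.

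Named genes are MYC, up to 15 protein-coding genes and 4 of other biotypes in each direction (largest change, mean of at least 5 CPM, called, groups apart), from each list at most 4 called members (lowest p first), and up to 8 genes in each direction that set replicate 2 apart. Uncalled genes and neighbours of histone genes named for context were chosen after their values were seen. Groups, 37 lists with 911 genes (783 tested) and named-gene rule were chosen with earlier results of these data known. Besides the lists described in the report, those for p53 targets (3 of 23 tested higher, 4 lower), snoRNA hosts (3 of 24 higher, 3 lower), circadian (1 of 17 higher, 3 lower), NRF2 (0 of 23 higher, 2 lower), cholesterol (3 of 34 higher, 1 lower), glycolysis (2 of 29 higher, 0 lower), polyamine (1 of 14 higher, 1 lower), BCL2 family (0 of 13 higher, 1 lower), G1 cyclin and CDK inhibitor (0 of 14 higher, 2 lower), and myeloid and megakaryocytic genes (1 of 11 higher, 0 lower) were counted. Promoter sequences came from RefSeq, GRCh38.p14.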

Additional observations from a re-analysis of the deposited data

How the results depend on the processing

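The log2 change of FUT1, not called with all libraries (0.49 against the control and 0.47 against untargeted JQ1-FCPF), turned to -0.61 and -0.63 and was called without targeted replicate 2, with a range of -0.61 to 0.87 and -0.63 to 0.85 over single libraries left out. Without the 2 libraries that stood apart (targeted replicate 2 and replicate 1 of JQ1 with sgRNA) it was -0.61 and -0.63, and ASNS against JQ1 with sgRNA turned from 0.09 to -0.28. A further 58 values of named genes changed sign under an alternative and were called in neither fit. The 1129 genes called against the control became 555 in a fit of those groups alone and 1791 without those 2 libraries, and 538 (without control replicate 3) to 1191 when 1 library was left out, with 693 and 695 without control replicates 1 and 2. The 951 called against untargeted JQ1-FCPF became 358 and 1680 under the same settings, and 430 (without its replicate 3) to 1133, with 491 without its replicate 2. The 450 called against JQ1 with sgRNA became 776 without a filter on low counts, 679 with DESeq2, 11 in a fit of those groups alone and 3223 without both libraries. Leaving out 1 library gave 66 to 2765, with 114 without targeted replicate 3, and 202 and 255 without replicates 2 and 3 of JQ1 with sgRNA. A lone pair of libraries is assumed to vary like the other groups, and the cause of these moves was not tested. The letters of the titles showed no clear pairing of the libraries. Deviations of targeted and control libraries with the same number correlated at 0.12, -0.01 and 0.03. Not every library correlated best with its own number, but with 3 libraries a group this check cannot exclude pairing. With the number as a block 1003, 840 and 380 genes were called. Of the values of named genes against the control under alternatives, 1310 kept their side of the threshold, 117 lost their call and 11 gained one. Of the counts over gene lists, 733 stayed within 1.5 times and 155 moved further. Of the lists counted outside the report, members called higher were 1 without control replicate 1 or 3 for p53 targets, 1 without any 1 control library and 6 without targeted replicate 2 for snoRNA hosts, 1 without control replicate 2 for cholesterol genes, and 4 without targeted replicate 1 for glycolysis. The p53 targets called lower were 2 without control replicate 1. The single circadian gene called higher was lost without control replicate 1 or 3 or targeted replicate 1 or 2. For the G1, BCL2, polyamine and myeloid lists, counts of 0 to 2 moved by 1 under single libraries left out, as did that of cholesterol genes called lower. Median shifts of all genes stayed under 0.1 on the log2 scale. Depth limits genes at a few CPM, such as CXCL2 and FOXA2.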
